A study of Mus musculus with 12 samples.

Results

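Voltage-gated sodium and calcium channels were followed through their subunit genes in mouse brain, in 12 RNA sequencing libraries. Members were the genes whose symbol names a sodium channel alpha or beta subunit (Scn) or a calcium channel alpha1, alpha2delta, beta or gamma subunit (Cacna1, Cacna2d, Cacnb, Cacng), with at least 60 reads summed over the libraries. Of 43346 genes in the table, 39 matched by symbol and 37 had enough reads. The 2 left out were Scn4a, the sodium channel of skeletal muscle, with 31 reads and Cacng1, the gamma subunit of skeletal muscle, with 57, while the lowest member was Scn10a with 283. The members comprised 8 sodium channel alpha subunits, 4 sodium channel beta subunits, 10 calcium channel alpha1 subunits, 4 alpha2delta subunits, 4 calcium channel beta subunits and 7 gamma subunits. All 37 passed the filter on low counts, which kept 22553 genes. Scn2a, a main sodium channel of cortical excitatory neurons, is listed in the table as Scn2a1, which the rule did not match, and is given separately.

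The libraries came from a slice of brain with hippocampus and cortex, 4 in each of 3 groups, and all were labelled wild type. The Young group was untreated, aged 3 months, and labelled as strain C57BL/6. Animals of the Old group were aged 23 months, had C57BL/6;SJL-Tg as their strain, and drank water with 0.1% PEG as vehicle from month 9. The Old_CP2 group matched Old in age, strain and vehicle, and was given 25 mg/kg/day of CP2, which inhibits mitochondrial complex I, over the same span. The design text of the series speaks of non-transgenic mice and of APP/PS1 mice with and without CP2. The sample titles begin with NTG, read here as non-transgenic, and the sample labels do not name APP/PS1. Age, strain label and vehicle all differ between Young and the old groups, so they cannot be told apart. The labels do not say that each library is a separate animal, and p-values therefore measure only the spread between libraries, which may be technical.

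Depth ranged from 70548781 to 99449665 counts per library, so that 1 normalised CPM (counts scaled to the size of the library) stood for 68 to 98.2 reads. Hippocampal marker genes spanned 533 to 569 CPM among Young libraries, 518 to 602 among Old and 536 to 579.7 among Old_CP2, and cortical marker genes to 554 to 639, 429 to 603 and 484 to 636. The labelled tissue was therefore present in every library. The sums of 4 other region lists differed with the groups. Summed striatum markers spanned 412 to 677 CPM among Young libraries, 285 to 364 among Old and 274 to 360.1 among Old_CP2, and the thalamus and habenula list to 1048 to 1449.97, 620.4 to 919.5 and 559 to 926. Midbrain and hindbrain markers spanned 8.3 to 11 CPM among Young libraries, 44 to 117 among Old and 31.4 to 146 in Old_CP2, with the highest sums in Old 7 and Old_CP2 15. Choroid plexus markers summed to 1269.8 to 2039, 34.8 to 1007 and 30.7 to 865 CPM. For these 4 region lists, no Young library overlapped an old one.

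**Figure D1:**
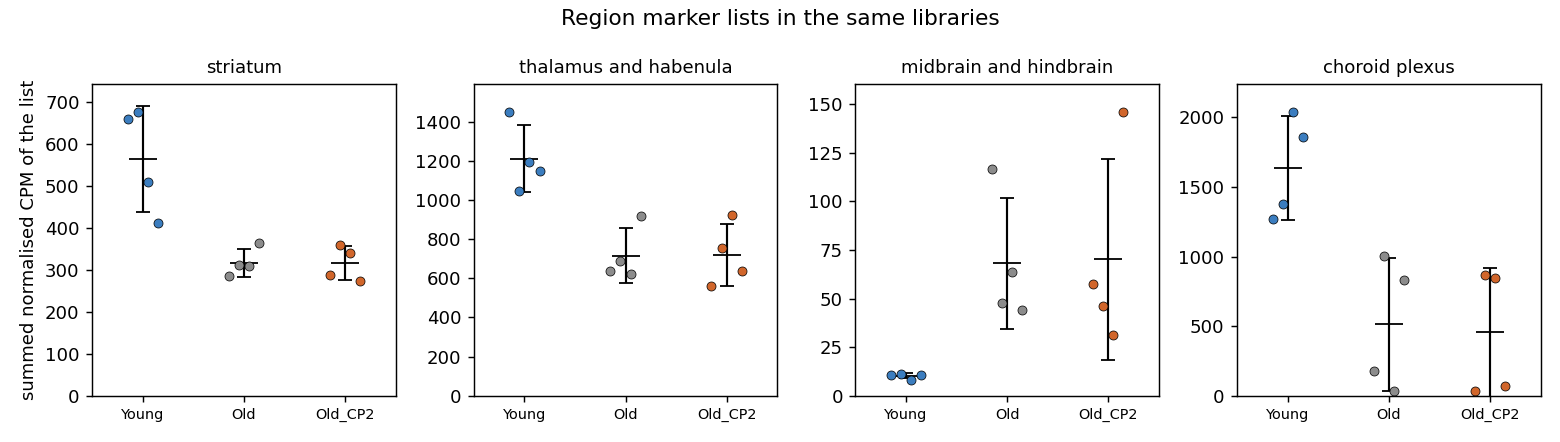
Summed normalised CPM (y axis) of 4 region marker lists in each library of Young, Old and Old_CP2 (x axis); points are libraries, horizontal marks and bars the mean ± SD of 4. In all 4 panels the Young libraries stand apart from the 8 old libraries, and Old and Old_CP2 overlap.

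Voltage-gated sodium channels carry the rising phase of the action potential. Their alpha subunit forms the pore, and beta subunits tune gating and place the channel in the membrane. Voltage-gated calcium channels turn depolarisation into calcium entry. Their alpha1 subunit sets the channel type: L-type channels couple activity to gene expression, P/Q- and N-type channels trigger transmitter release, R-type channels act in dendrites and terminals, and low-threshold T-type channels support burst firing, above all in the thalamus. The alpha2delta and beta subunits bring alpha1 to the membrane. Most gamma subunits of the brain are known as TARPs, which carry AMPA-type glutamate receptors to the synapse.

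Levels were compared between genes per length, as the RPKM deposited by the authors, averaged over the 12 libraries. Among sodium channel alpha subunits, Scn8a, the channel of the axon initial segment and nodes of Ranvier, had 24.8 RPKM and Scn1a, prominent in fast inhibitory interneurons, had 16.1. Scn3a, best known from the embryonic brain, had 3.41 RPKM. The atypical sodium sensor Scn7a and the sensory neuron channel Scn9a had 0.722 and 0.675 RPKM, while the sensory neuron channels Scn11a and Scn10a had 0.0403 and 0.0346. The TARP gene Cacng7 and the beta subunit gene Scn2b were among the most abundant members, at 51.5 and 49.96 RPKM. Among alpha1 genes, Cacna1e (R type), Cacna1a (P/Q type), Cacna1b (N type) and Cacna1g (T type) followed each other closely, at 12.1, 12, 11.8 and 10.9 RPKM. In Young the order of those 4 was different, with Cacna1g at 13.6 ± 1.59 RPKM (SD, n = 4), Cacna1b at 12.8 ± 0.449, Cacna1a at 12.6 ± 0.896 and Cacna1e at 12 ± 0.52, each neighbouring pair in that order differing by less than the larger of its 2 SDs. The T-type genes Cacna1i and Cacna1h had 8.6 and 5.71 RPKM, and the L-type genes Cacna1d and Cacna1c 4.67 and 4.47. Cacna1s, the L-type channel of skeletal muscle, and Cacna1f, that of the retina, had 0.131 and 0.0608 RPKM. Of the accessory calcium channel genes, Cacnb3 (42.6 RPKM), Cacng8 (29.6), Cacna2d1 (24.7) and Cacnb4 (22.9) were high, and Cacna2d4 (0.391) and Cacng6 (0.379) low. RPKM depends on the deposited length, which is long for some members (24813 bases for Cacna1e and 21191 for Cacna1c).

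**Figure D2:**
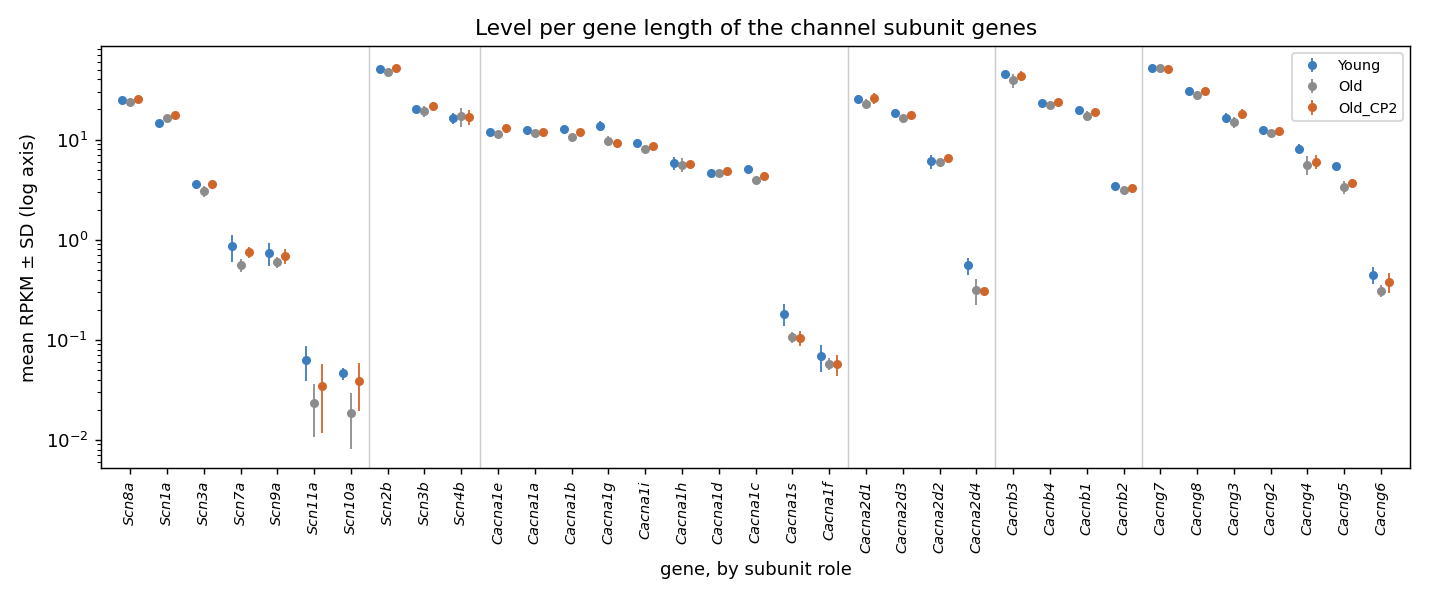
Mean RPKM ± SD of 4 libraries (y axis, log scale) of 35 members (x axis, ordered by subunit role and level, with lines between roles) in Young, Old and Old_CP2. Of those plotted, Cacng7 stands highest at 51.5 RPKM over all libraries and Scn10a lowest at 0.0346.

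Old was first set against Young, a contrast of brains of 23 and of 3 months. Some calcium channel genes fell in Old: 4 of 10 alpha1 genes, 1 of 4 alpha2delta genes, 2 of 7 gamma genes and 0 of 4 beta genes were called lower. In all, 8 of 37 members were called lower and 0 higher (edgeR quasi-likelihood test with Benjamini-Hochberg adjustment over 22553 genes, adjusted p under 0.05). The background was 2.74% of all genes called lower and 3.96% called higher, against 21.6% and 0% of the members. At an unadjusted p under 0.05, 16 members were lower and 1 was higher, where all genes gave 10.3% and 11.2%. DESeq2 called 11 members lower and 1 higher, adding Cacna1i, Cacnb2, Scn7a and Scn1a, and it called 2479 of the 22553 genes in all, against 893 higher and 618 lower by edgeR. Values of the groups did not overlap for 10 members lower in Old and 1 higher, with a background of 6.32% and 6.94%. The median log2 fold change was -0.16 over the members and -0.0034 over all genes, and 2 of 37 members had a value above 0. In tissue RNA, fewer cells of a type and less RNA per cell cannot be told apart. The 4 sodium channel beta genes and the 4 calcium channel beta genes had 0 calls, with 0 and 1 at an unadjusted p under 0.05.

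**Figure D3:**
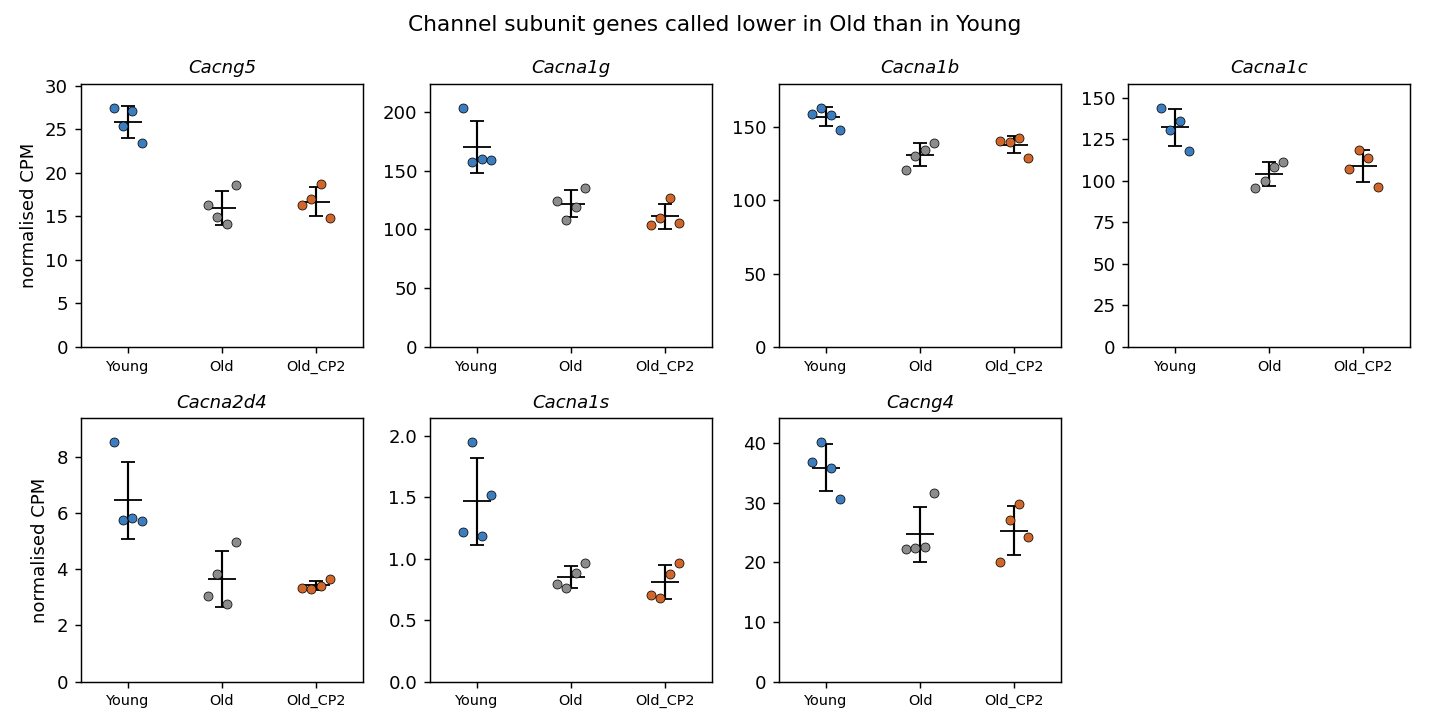
Normalised CPM (y axis) of 7 members called lower in Old than in Young, in each library of Young, Old and Old_CP2 (x axis); points are libraries, horizontal marks and bars the mean ± SD of 4. Old lies below Young without overlap in 6 panels, and 1 Old library of Cacng4, at 31.6 CPM, reaches into the Young range.

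The pore-forming T-type gene Cacna1g (ENSMUSG00000020866, chromosome 11, 94408391 to 94474198, mm10), which drives burst firing in thalamic neurons, read 204, 158, 160.3 and 159 CPM in Young 1, 3, 4 and 5, and 125, 108, 119 and 135 in Old 7, 8, 9 and 10. Every Old library was below every Young library, and Cacna1g fell from 170.3 ± 22.4 to 122 ± 11.5 CPM (mean ± SD of 4 libraries; log2 fold change -0.48 ± 0.09 SE, edgeR adjusted p = 0.0108). The 2 other T-type genes were not called by edgeR. Cacna1i, a T-type channel of reticular thalamus and cortex, stood at 112, 116, 112 and 105 CPM in Young and 85.7, 101, 98.6 and 102 in Old, without overlap (log2 fold change -0.20 ± 0.06 SE, edgeR adjusted p = 0.0668), and DESeq2 called it (adjusted p = 0.0281). Cacna1h, the third T-type gene, overlapped, at 84.8, 71.6, 60.2 and 61.8 CPM in Young and 56.8, 60.7, 76.2 and 77 in Old (-0.04 ± 0.11 SE, adjusted p = 0.892, 95% interval -0.29 to 0.21).

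Of the presynaptic alpha1 genes, Cacna1b (ENSMUSG00000004113, chromosome 2, 24603887 to 24763152, mm10), the N-type channel of transmitter release, had 159, 163, 158 and 148 CPM in the Young libraries and 121, 130.3, 134 and 139 in the Old ones. The groups did not overlap, and Cacna1b fell by 0.26 on the log2 scale, from 157 ± 6.46 to 131 ± 7.9 CPM (SE 0.05, edgeR adjusted p = 0.0116). Its P/Q-type counterpart Cacna1a measured 196, 172, 179.6 and 160.3 CPM in Young and 164, 149.7, 169.8 and 165 in Old, with overlap (-0.13 ± 0.06 SE, adjusted p = 0.248). The R-type gene Cacna1e measured 359.6, 388, 359 and 354 and 321, 341, 379 and 353 CPM (-0.07 ± 0.08 SE, adjusted p = 0.674, 95% interval -0.23 to 0.09). The groups overlapped for Cacna1e.

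Among L-type genes, Cacna1c (ENSMUSG00000051331, chromosome 6, 118587240 to 119196418, mm10), the main L-type channel of brain and heart, had 144, 130.5, 136 and 118 CPM in Young and 95.9, 99.9, 108 and 112 in Old. All Old values lay below the lowest Young value, and Cacna1c fell from 132 ± 11.1 to 104 ± 7.25 CPM (log2 fold change -0.35 ± 0.08 SE, edgeR adjusted p = 0.017). Cacna1d, the L-type channel that opens at lower voltage, read 55.7, 51.7, 52.2 and 51.1 CPM in the Young and 50.7, 50.8, 55.9 and 51.5 in the Old libraries (-0.01 ± 0.06 SE, adjusted p = 0.94, 95% interval -0.14 to 0.12). Cacna1s fell too, at a low level: its Young libraries held 1.22, 1.95, 1.19 and 1.52 CPM and its Old libraries 0.796, 0.765, 0.881 and 0.967 (log2 fold change -0.77 ± 0.18 SE, edgeR adjusted p = 0.0272), which rests on 499 and 286 reads per group. RP23-211F21.1, an unnamed gene model that overlaps Cacna1s, averaged 0.571 CPM in Young and 0.343 in Old, and the library kit does not mark the strand. Cacna1s lost its call when Young 3 or 5 or Old 7, 8 or 9 was left out (adjusted p 0.0582 to 0.0767).

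Summed per length, T-type genes made up 37.6 ± 1.52% of all alpha1 RPKM in Young (SD, n = 4), 35.5 ± 1.002% in Old and 34 ± 0.925% in Old_CP2. The P/Q-, N- and R-type genes made up 49.3 ± 1.43%, 51.2 ± 0.787% and 52.6 ± 0.881%, and the L-type genes 13.1 ± 0.25%, 13.3 ± 0.219% and 13.4 ± 0.371%. For T-type genes the Young libraries covered 36.29 to 39.78%, the Old libraries 34.96 to 37.01% and the Old_CP2 libraries 33.02 to 34.86%. Young and Old overlapped, while Old_CP2 lay below both, just under Old. The P/Q-, N- and R-type share ranged over 47.22 to 50.25%, 50.02 to 51.61% and 51.62 to 53.68%. Young and Old overlapped in this share and Old_CP2 lay above both, with its lowest library just over the highest Old one. The class shares add up to the whole, so this largely mirrors the T-type share and is not a separate result. These shares are given as a description.

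Among the alpha2delta genes, Cacna2d4 (ENSMUSG00000041460, chromosome 6, 119236526 to 119352407, mm10), known from retinal photoreceptors, was called. Its Young libraries read 8.52, 5.76, 5.84 and 5.73 CPM and its Old libraries 3.06, 3.82, 2.77 and 4.98, without overlap and with Young 1 standing above the rest (log2 fold change -0.82 ± 0.18 SE, edgeR adjusted p = 0.017). Lrtm2, a gene that overlaps Cacna2d4 and is far more abundant, averaged 90.1 CPM in Young and 71.1 in Old, so that reads of Cacna2d4 may be uncertain without strand. The abundant alpha2delta gene Cacna2d1, a target of gabapentin, read 207, 243, 249.998 and 235 CPM in the Young and 177, 219.7, 209.8 and 233 in the Old libraries (-0.16 ± 0.10 SE, adjusted p = 0.424). Cacna2d3 had no overlap between groups (-0.15 ± 0.06 SE, adjusted p = 0.151), and Cacna2d2 had a log2 fold change of -0.05 (adjusted p = 0.835). Log2 fold changes of the calcium channel beta genes ran from -0.20 for Cacnb3 to -0.06 for Cacnb4. The smallest adjusted p of these 4, 0.082, was that of Cacnb2, which had 59.2, 55.3, 54.3 and 57.1 CPM in Young and 48.4, 48.2, 50.5 and 55.2 in Old.

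The gamma genes held the call with the smallest p, Cacng5 (ENSMUSG00000040373, chromosome 11, 107874605 to 107915055, mm10), a TARP. Its Young libraries had 27.5, 25.4, 27.1 and 23.5 CPM and its Old libraries 16.2, 14.9, 14.1 and 18.6, and every Old value was below the lowest Young one. Cacng5 fell from 25.8 ± 1.83 to 16 ± 1.99 CPM (log2 fold change -0.69 ± 0.09 SE, edgeR adjusted p = 0.00159). Cacng4 (ENSMUSG00000020723, chromosome 11, 107732357 to 107794557, mm10), also a TARP, read 36.8, 40.1, 35.8 and 30.6 CPM in Young and 22.2, 22.4, 22.5 and 31.6 in Old. Here Old 10 lay above the lowest Young library (log2 fold change -0.54 ± 0.14 SE, edgeR adjusted p = 0.034). Its call ended without Young 1, 3 or 4 or Old 7, 8 or 9 (adjusted p 0.0702 to 0.087). Without Old 7, highest on the midbrain and hindbrain list, and Old_CP2 15, 6 members were called lower, Cacng4 and Cacna1s having lost their calls, a choice made after seeing the data. The abundant TARP genes were not called. Cacng2 (stargazin) had a log2 fold change of -0.09, Cacng3 -0.15, Cacng7 -0.02 and Cacng8 -0.15, with adjusted p of 0.276 to 0.851. Cacng7 stood at 156, 133, 139 and 141 CPM in Young and 138, 141, 143 and 139 in Old, with a 95% interval of -0.12 to 0.08.

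The abundant sodium channel alpha genes were not called. Scn8a stood at 386, 361, 377 and 359 CPM in Young and 331, 367, 368 and 359 in Old (-0.06 ± 0.05 SE, adjusted p = 0.593, 95% interval -0.17 to 0.06). Scn1a was 1 of 2 members with a value above 0, the other being the beta subunit gene Scn4b. Its Young libraries had 216, 188, 195 and 193 CPM and its Old libraries 229.5, 229.5, 216 and 217, so the lowest Old library exceeded the highest Young one by little (log2 fold change 0.17 ± 0.05 SE, edgeR adjusted p = 0.0811). Scn1a was called without Young 1 (adjusted p = 0.0387) and by DESeq2 (adjusted p = 0.0343). Scn3a measured 49.3, 61, 57.1 and 52.1 CPM in Young and 40.9, 44.8, 50.03 and 53.2 in Old, with overlap (-0.22 ± 0.09 SE, adjusted p = 0.207). Scn2a1, outside the rule, averaged 325 ± 31.9 CPM in Young and 310.4 ± 21.9 in Old (-0.07 ± 0.10 SE, adjusted p = 0.771).

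Scn7a, at 5.2, 10.3, 9.04 and 6.5 CPM in Young and 3.91, 6.03, 5.06 and 5.28 in Old, overlapped between groups (-0.61 ± 0.19 SE, adjusted p = 0.078), and it was called without Young 1 (adjusted p = 0.0287) and by DESeq2 (adjusted p = 0.0183). Scn10a and Scn11a had the fewest reads of the members, with 123 and 149 reads in the 4 Young libraries and 49 and 58 in the 4 Old ones (adjusted p = 0.12 and 0.145). The beta genes Scn2b, Scn3b and Scn4b had log2 fold changes of -0.10, -0.06 and 0.06, with adjusted p of 0.318 to 0.851. Scn4b, abundant in striatum and in fast-firing hindbrain neurons, read 114, 108, 89 and 85.2 CPM in the Young and 132, 98.5, 87.7 and 95.4 in the Old libraries, highest in Old 7.

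**Figure D4:**
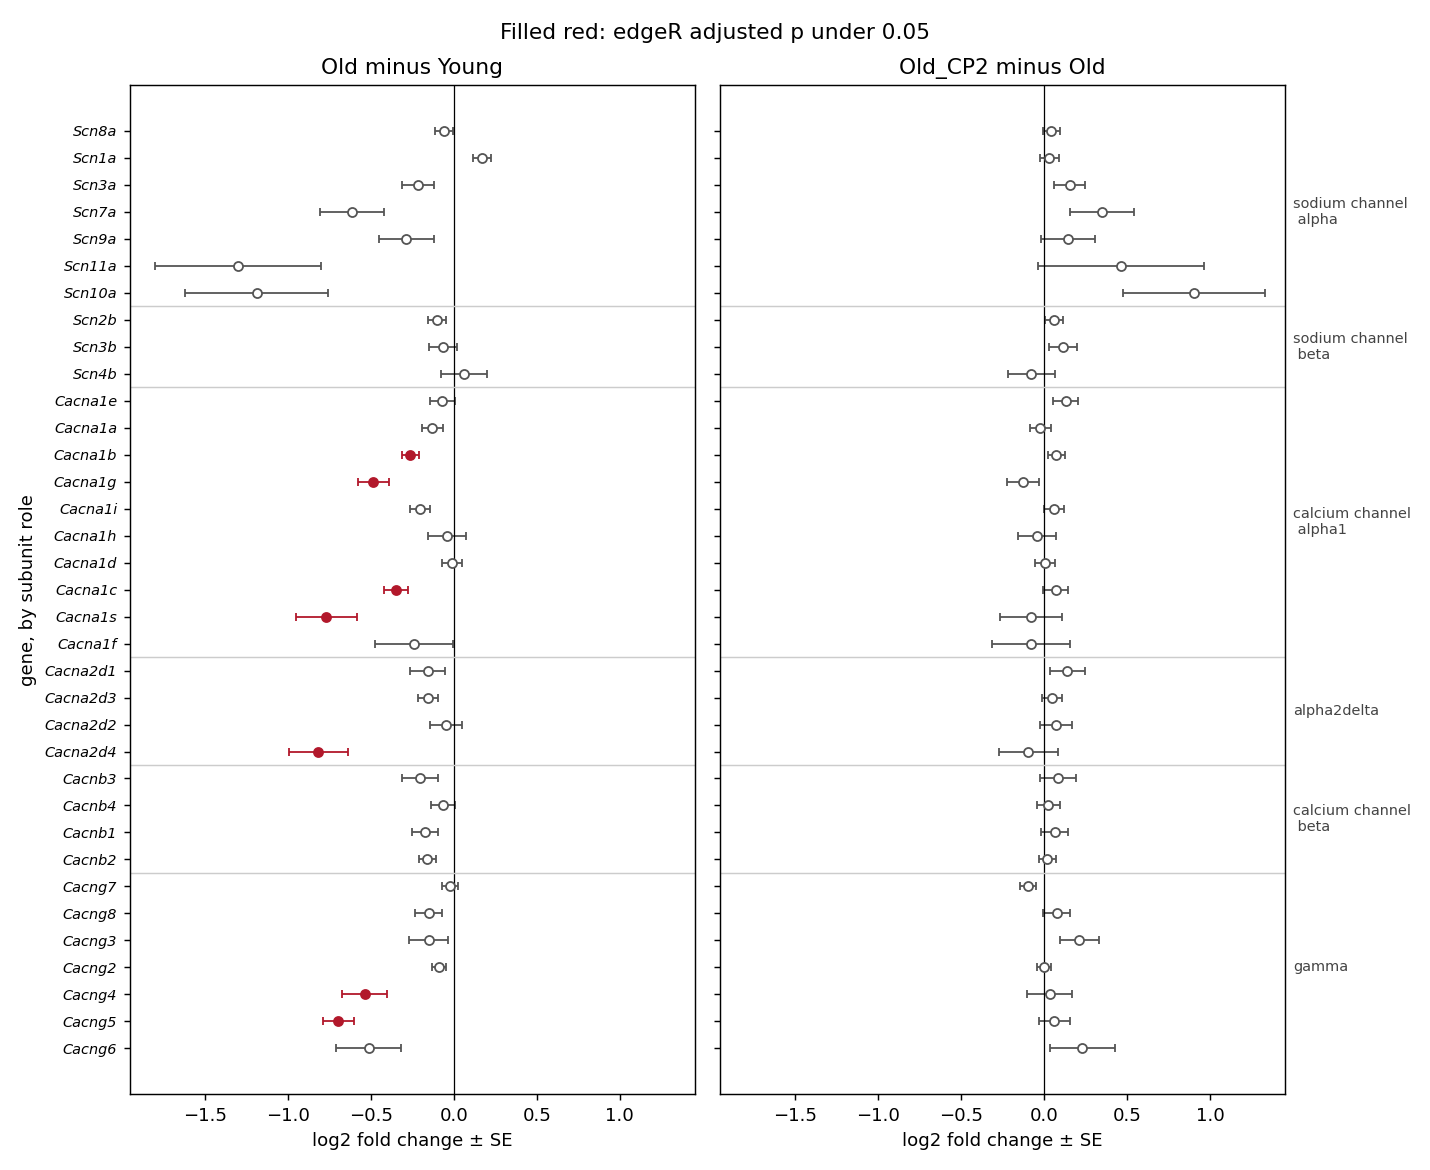
Log2 fold change ± SE (x axis) of 35 members (y axis, by subunit role) in Old minus Young (left) and Old_CP2 minus Old (right); filled red points have an edgeR adjusted p under 0.05. On the left 33 of 35 points lie below 0 and 7 are filled; on the right 26 of 35 lie above 0 and 0 are filled. Both panels use the Old libraries.

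The 8 called members ranked 18 to 34 among the 37 by mean RPKM, Cacna1b being the most abundant of them and Cacna1s the least. Some also shared a place in the genome. Since 2 of 37 members had a value above 0, a shared direction of neighbours says little. Cacng4 and Cacng5 lie 80.0 kb apart on chromosome 11 and both fell. Cacna1c and Cacna2d4 lie 40.1 kb apart on chromosome 6 and both fell. Scn10a and Scn11a lie 34.7 kb apart on chromosome 9, with log2 fold changes of -1.19 and -1.30, neither called. Neighbours did not always share a direction: Scn1a, 39.2 kb from Scn9a on chromosome 2, had 0.17 and Scn9a -0.29, neither called. Scn2b and Scn4b, 8.37 kb apart on chromosome 9, had -0.10 and 0.06, neither called. Scn7a, 38.5 kb from Scn9a, had -0.61 and was not called. On chromosome 7, Cacng7, Cacng8 and Cacng6 had -0.02, -0.15 and -0.51 and were not called.

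Promoters are shown for 3 genes called lower in both old groups and for Scn1a, which had the opposite sign, to let their make-up be compared. RefSeq start sites on GRCm38.p6 were listed for 28 of the 37 members. Each line gives the 250 bases before the most upstream listed start, 5′ to 3′ on the strand of the gene, which is the minus strand for all 4: chr11:107915056-107915305, chr2:24763153-24763402, chr6:119196410-119196659 and chr2:66440838-66441087. Capitals mark matches, on either strand, to the GC box GGGCGG and the CCAAT box CCAAT. The search also covered the TATA box TATAAA, the cAMP response element TGACGTCA and TTCAGCACC and GGACAGC, the parts of the RE1 element bound by REST, a repressor of neuronal genes. None of these motifs shares bases with another in the matches shown.
Cacng5: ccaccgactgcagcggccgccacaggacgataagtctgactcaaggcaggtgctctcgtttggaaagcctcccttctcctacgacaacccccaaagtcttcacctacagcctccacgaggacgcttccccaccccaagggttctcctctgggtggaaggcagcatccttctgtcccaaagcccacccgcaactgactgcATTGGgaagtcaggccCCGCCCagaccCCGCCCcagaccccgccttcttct
Cacna1b: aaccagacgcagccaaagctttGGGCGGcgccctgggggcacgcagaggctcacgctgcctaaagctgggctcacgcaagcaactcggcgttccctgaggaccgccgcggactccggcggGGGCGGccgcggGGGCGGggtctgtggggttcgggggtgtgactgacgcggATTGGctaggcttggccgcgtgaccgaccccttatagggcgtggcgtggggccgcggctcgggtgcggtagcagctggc
Cacna1c: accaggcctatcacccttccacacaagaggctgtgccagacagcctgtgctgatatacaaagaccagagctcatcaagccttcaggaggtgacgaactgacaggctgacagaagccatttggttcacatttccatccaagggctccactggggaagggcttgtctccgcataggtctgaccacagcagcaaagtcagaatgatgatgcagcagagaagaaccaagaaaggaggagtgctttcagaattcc
Scn1a: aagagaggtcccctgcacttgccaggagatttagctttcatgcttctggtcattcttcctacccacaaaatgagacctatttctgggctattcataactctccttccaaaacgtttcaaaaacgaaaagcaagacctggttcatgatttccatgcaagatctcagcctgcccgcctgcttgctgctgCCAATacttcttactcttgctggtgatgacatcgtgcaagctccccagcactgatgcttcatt
G and C made up 62% of the Cacng5 window, 72% of Cacna1b, 51.6% of Cacna1c and 46.8% of Scn1a, beside a median of 52.4% over all 32851 windows of that length. The GC box occurred 2 times in Cacng5 and 3 times in Cacna1b and had no match in the other 2 windows, and 32.7% of all windows hold it. The CCAAT box occurred once in Cacng5, in Cacna1b and in Scn1a, and 33.8% of all windows hold it. The TATA box (12.4% of all windows), the cAMP response element (1.55%) and the RE1 parts (0.301% and 5.28%) had no match in these 4 windows. The windows shown for the 3 genes that fell thus had no searched motif in common. Cacng5 has 2 listed starts and Cacna1c has 3, and the windows of their other starts are not described.

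Region markers also differed between Young and Old. In the striatum list, 9 of 13 tested genes fell in Old and 0 rose (median -0.91), among them Penk, the enkephalin precursor (-1.31 ± 0.18 SE, adjusted p = 0.00211). In the thalamus and habenula list 7 of 16 fell and 0 rose (median -0.76), among them Rgs16, a regulator of G protein signalling (-1.20 ± 0.26 SE, adjusted p = 0.018). Among Young libraries, Young 1 had the highest thalamus sum (1449.97 CPM) and the highest Cacna1g, Cacna1c, Cacna2d4 and Cacng5. Young 3 had the lowest thalamus sum (1047.57 CPM) and the highest striatum sum (676.6 CPM). It also had the highest Cacna1b (163 CPM), Cacna1s (1.95 CPM) and Cacng4 (40.1 CPM). Among Old libraries, Old 10 had the highest thalamus sum (919.5 CPM), the highest striatum sum (363.8 CPM) and the highest value of all 8 called members. With the mean log2 CPM of the striatum list added to the fit, 0 of 37 members were called in either direction, and likewise with the thalamus and habenula list, a choice made after seeing the data. With those terms 6 and 24 of the 22553 genes were called in all, against 893 higher and 618 lower without. Log2 fold changes with the striatum term were -0.39 for Cacng5, -0.19 for Cacna1g, -0.09 for Cacna1b, -0.07 for Cacna1c, -0.59 for Cacna1s, -0.35 for Cacna2d4 and 0.08 for Cacng4, the last with its sign turned. With the thalamus and habenula term they were -0.44 for Cacng5, -0.27 for Cacna1g, -0.17 for Cacna1b, -0.19 for Cacna1c, -0.67 for Cacna1s, -0.47 for Cacna2d4 and -0.08 for Cacng4. Standard errors grew with the terms, for Cacna1s from 0.18 to 0.33 and 0.29. The part of region content in the calls cannot be told apart from the group, since no Young library overlaps an old one on either list.

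Other cell lists give the setting. Over all genes 2.74% were called lower and 3.96% higher, so 1 call in such a short list says little. Among 10 hippocampal markers 3 rose and 0 fell (median -0.05), and among 9 cortical markers 1 rose and 1 fell (median -0.32). Of 11 general neuron markers 2 fell and 0 rose (median -0.03), and their sums overlapped, at 7210.2 to 7510.4 CPM in Young and 6945 to 7577 in Old. Of 12 GABA interneuron markers 2 rose and 3 fell (median -0.06), with sums of 1484 to 1555 and 1568 to 1583 CPM. Of 10 markers of oligodendrocyte precursors 1 fell (median -0.07), with sums of 409 to 433 and 350.3 to 419 CPM. Of 11 astrocyte markers 6 rose and 0 fell (median 0.27), with sums of 4338 to 4972 and 5611 to 6107 CPM. Muscle markers, relevant to Cacna1s, summed to 13.4 to 15 CPM in Young and 11.8 to 14.3 in Old, and 1 of 7 rose and 0 fell. Sensory ganglion markers summed to 6.73 to 9.68 CPM in Young and 8.22 to 13.4 in Old, and 1 of 5 rose and 0 fell. Endothelium and pericyte markers summed to 240 to 285 and 231 to 256 CPM, and 1 of 12 fell and 0 rose. Of 8 microglia markers 2 rose and 0 fell (median 0.29), with sums of 261 to 330.1 CPM in Young and 362 to 387 in Old, without overlap. Of 8 markers of meningeal fibroblasts 3 rose and 0 fell (median 0.86), with sums of 128 to 223 and 156 to 231 CPM. Of 10 oligodendrocyte markers 2 fell and 0 rose (median -0.23), with sums of 5854 to 7136 and 5314 to 7619 CPM. Of 12 hypothalamus markers 3 fell and 0 rose (median -2.08), with sums of 99.8 to 337 and 45.9 to 105 CPM. Cerebellum markers summed to 196 to 221 CPM in Young and 724, 187, 161 and 183 in Old 7, 8, 9 and 10, so that Old 7 stood apart. The part of these lists in the channel calls was not tested.

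Partner genes of the channels were taken from lists chosen for role. Against a background of 2.74% of all genes called lower and 3.96% called higher, 1 call in such a list says little about it. Of 17 genes of the axon initial segment and node 1 fell: Nfasc, the adhesion protein neurofascin that anchors sodium channels there, from 378 ± 23.9 to 295 ± 18.6 CPM (-0.36 ± 0.06 SE, adjusted p = 0.0041). Of 16 sodium channel modulators 1 rose, Fgf11, an intracellular fibroblast growth factor homologue (0.58 ± 0.08 SE, adjusted p = 0.00234). Of 27 calcium channel modulators 1 rose, Thbs2, a thrombospondin that binds alpha2delta (1.04 ± 0.19 SE, adjusted p = 0.00851), and Rem2, a small GTPase that restrains calcium channels, was not called (-0.56 ± 0.17 SE, adjusted p = 0.0658). Of 23 genes of the presynaptic release site 3 fell and 1 rose. The active zone scaffold Rims1 (-0.22 ± 0.05 SE, adjusted p = 0.0209), the priming factor Unc13a (-0.30 ± 0.07 SE, adjusted p = 0.0212) and the neurexin gene Nrxn3 (-0.22 ± 0.05 SE, adjusted p = 0.0122) were lower. Syt2, a fast calcium sensor of hindbrain and interneuron terminals, was higher (1.08 ± 0.18 SE, adjusted p = 0.00518). Of 24 genes of the AMPA receptor complex, the cargo of TARPs, 1 fell, the neuronal pentraxin gene Nptx2 (-0.85 ± 0.17 SE, adjusted p = 0.0127). The list medians ran from -0.17 to -0.02, beside -0.0034 over all genes.

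The comparison of Old_CP2 with Old asks how CP2-treated mice differed from vehicle-treated mice of the same age and strain label. No member was called: edgeR gave 0 higher and 0 lower of 37, with 0 at an unadjusted p under 0.05, and DESeq2 and limma voom also gave 0. Over all genes edgeR called 0.0266% higher and 0.0177% lower, and 3.06% and 3.25% were higher and lower at an unadjusted p under 0.05. The median log2 fold change was 0.06 over the members and 0.0017 over all genes, and 28 of 37 members had a value above 0. These values share the Old libraries with the comparison above, so opposite signs in both are not independent. The members' group values did not overlap for 1 gene, Cacng7, lower in Old_CP2, with a background of 1.82% lower and 1.62% higher.

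The 95% intervals give the range of log2 fold changes compatible with the library values. For Cacna1g, with 103, 110.1, 127 and 105 CPM in Old_CP2 11, 12, 13 and 15, the 95% interval of the log2 fold change against Old was -0.33 to 0.08 (adjusted p = 0.86). Cacng7 measured 127, 134, 129.9 and 133 CPM in Old_CP2, each value below all of Old (-0.10 ± 0.05 SE, adjusted p = 0.796). Cacng3, a TARP of cortical neurons, had 40.3, 57, 56.1 and 51 CPM in Old and 61.9, 64, 62.5 and 48.4 in Old_CP2 (0.21 ± 0.12 SE, adjusted p = 0.822, interval -0.04 to 0.46). Cacna1e had 423, 395, 383 and 325 CPM in Old_CP2 (0.13 ± 0.08 SE, adjusted p = 0.826), Cacna1b 140.1, 140.1, 142 and 129 (0.07 ± 0.05 SE, adjusted p = 0.854) and Cacna2d1 238, 252, 250.4 and 184 (0.14 ± 0.10 SE, adjusted p = 0.861). In all 3, Old_CP2 overlapped Old. The low alpha subunits had wider intervals: Scn7a, at 5.32, 6.73, 7.09 and 6.64 CPM in Old_CP2, had -0.07 to 0.76, and Scn10a, at 0.0442, 0.191, 0.124 and 0.234 CPM in Old and 0.26, 0.428, 0.39 and 0.0992 in Old_CP2, had -0.02 to 1.82. Their adjusted p were 0.826 and 0.796. Scn3a was at 55.7, 55.4, 54.5 and 44.6 CPM (0.15 ± 0.09 SE, adjusted p = 0.83).

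None of the other main pore-forming genes of the brain was called in Old_CP2 against Old. Scn8a read 391, 381, 351 and 345 CPM in Old_CP2 (interval -0.07 to 0.16) and Scn1a 247, 227, 215 and 223 (interval -0.09 to 0.15). Cacna1a read 163, 167, 157 and 153 CPM (interval -0.15 to 0.11), Cacna1c 107, 119, 114 and 96.6 (-0.09 to 0.23) and Cacna1d 55.3, 53.5, 54.6 and 46 (-0.13 to 0.13). The remaining T-type genes Cacna1h, at 67.7, 68.4, 61.9 and 64.7 CPM, and Cacna1i, at 106, 102, 103 and 92, had intervals of -0.29 to 0.20 and -0.07 to 0.19. Adjusted p of these 7 genes were 0.902 to 0.994. Scn2a1, outside the rule, averaged 350 ± 51.9 CPM in Old_CP2 (log2 fold change against Old 0.17 ± 0.10 SE, edgeR adjusted p = 0.826). Against Young, Scn2a1 had 0.11 ± 0.10 SE (edgeR adjusted p = 0.592). In the 5 partner lists 0 genes were called in either direction, and 0 to 2 per list had an unadjusted p under 0.05. The astrocyte list differed between these groups without overlap, at 5611 to 6107 CPM in Old and 4897 to 5438 in Old_CP2, although 0 of 11 genes were called (median -0.18). At an unadjusted edgeR p under 0.05, 7 of the 11 differed, beside 3.06% of all genes higher and 3.25% lower. Endothelium and pericyte markers gave 6 of 12 at that level and 0 calls (median 0.23), with overlapping sums. The other cell and region lists gave 0 to 2.

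Old_CP2 against Young sets the treated old brain beside the young one. It uses the same Young libraries as the first comparison, so the 2 are not independent. Here 7 of 37 members were called lower and 1 higher, with a background of 2.94% and 4.63% (edgeR), and non-overlapping values were found for 8 members lower and 0 higher, with a background of 7.07% and 8.42%. At an unadjusted p under 0.05, 12 members were lower and 1 was higher, with 10.9% and 12.3% of all genes. The median log2 fold change was -0.12 over the members and -0.0076 over all genes. Cacna1g was at 111 ± 10.6 CPM in Old_CP2 and 170.3 ± 22.4 in Young (log2 fold change -0.61 ± 0.09 SE, edgeR adjusted p = 0.00292), and Cacng5 at 16.7 ± 1.64 and 25.8 ± 1.83 (log2 fold change -0.63 ± 0.09 SE, edgeR adjusted p = 0.00213). Cacng5 read 16.2, 16.9, 18.7 and 14.8 CPM in the 4 treated libraries, all below Young. Cacna2d4, at 3.34, 3.31, 3.39 and 3.66 CPM in Old_CP2, and Cacna1s, at 0.708, 0.682, 0.878 and 0.967, fell without overlap (-0.91 ± 0.18 and -0.85 ± 0.18 SE, adjusted p = 0.00889 and 0.0157). Cacng4, at 20.1, 27.1, 29.8 and 24.2 CPM, fell by 0.50 (adjusted p = 0.0407), Cacna1c, whose highest treated library exceeded the lowest Young one, by 0.28 (adjusted p = 0.0415) and Cacna1b by 0.19 on the log2 scale (adjusted p = 0.0443). Scn1a rose, from 198 ± 12.2 to 228 ± 13.8 CPM, with the lowest treated library just under the highest Young one (log2 fold change 0.20 ± 0.05 SE, edgeR adjusted p = 0.0399). Cacnb2, at 50.4, 51.8, 53.1 and 49.8 CPM in Old_CP2 (-0.14 ± 0.05 SE, adjusted p = 0.119), did not overlap with Young and was not called. Called lower in both comparisons with Young were Cacng5, Cacna1g, Cacna1b, Cacna1c, Cacna2d4, Cacna1s and Cacng4.

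Some calls of Old_CP2 against Young depended on single libraries or on the filter. Leaving out 1 library ended the call of Cacna1b for any but Young 5 (adjusted p 0.0624 to 0.102) and that of Cacna1c for any but Young 5 and Old_CP2 12 (adjusted p 0.0561 to 0.106). It ended the call of Cacng4 for any but Young 5 and Old_CP2 13 (adjusted p 0.0694 to 0.107), that of Scn1a for Young 3, 4 or 5 and Old_CP2 11 or 12 (adjusted p 0.0723 to 0.115) and that of Cacna1s for Old_CP2 11 or 12 (adjusted p 0.0501 to 0.0546). Without Old 7 and Old_CP2 15, 5 members were called lower and 1 higher, the calls of Cacna1c and Cacng4 having ended. The fit with no filter on low counts also ended the calls of Cacna1b (adjusted p = 0.0879) and Cacna1c (adjusted p = 0.0544), with all libraries kept. General neuron markers summed to 7541 to 7952 CPM in Old_CP2 and 7210 to 7510 in Young, without overlap, and 0 of 11 were called. Microglia markers summed to 352 to 402 and 261 to 330 CPM, also without overlap. Sums of oligodendrocyte precursor markers, at 340 to 386 and 409 to 433 CPM, did not overlap either. The striatum and thalamus sums differed here as in the first comparison. With either list as a term 0 members were called, and the striatum and thalamus terms left 40 and 55 of the 22553 genes called in all, against 1045 higher and 662 lower without. Log2 fold changes were -0.36 for Cacng5, -0.35 for Cacna1g, -0.04 for Cacna1b, -0.03 for Cacna1c, -0.69 for Cacna1s, -0.48 for Cacna2d4 and 0.04 for Cacng4 with the striatum term, and -0.38 for Cacng5, -0.40 for Cacna1g, -0.09 for Cacna1b, -0.12 for Cacna1c, -0.75 for Cacna1s, -0.53 for Cacna2d4 and -0.04 for Cacng4 with the thalamus and habenula term. Scn1a had 0.17 and 0.12. The SE of Cacna1s rose from 0.18 to 0.30 and 0.29.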

How the data were processed

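Gene-level read counts and RPKM were deposited by the authors in 1 table with a length per gene, per the file headers. The submitters' processing notes name bcl2fastq, TopHat, Subread featureCounts and mm10, with versions not given in the sources used here. Libraries were made with a TruSeq kit and read from both ends, per the labels' protocols, and that kit does not mark strand. The RPKM deposited by the authors was used for levels between genes. Whole counts were fitted for all genes with edgeR 4.0.16 (R 4.3.3; filterByExpr, TMM factors, quasi-likelihood test, 12 libraries in 3 groups), with Benjamini-Hochberg adjustment and a threshold of 0.05. CPM are normalised with TMM factors, and fold changes use a prior count of 2. Intervals are 95%. DESeq2 1.42.0 and limma 3.58.1 were alternatives, and the test was tested on simulated data. No 2 libraries of a group agreed within sampling noise. Members, lists and terms were chosen with earlier results of these data known. Library values are given for members called in any comparison, for the next by p up to 10 in each, and for the main pore-forming genes. For Scn2a1, outside the rule, only group means are given. Of partner lists up to 4 genes and of region lists up to 3 with the smallest p could be named. Of the 37 members, 2 are counted but their values are not reported here. Groups came from the sample labels, and comparisons share libraries.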

Additional observations from a re-analysis of the deposited data

Results flagged for a closer look

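Single libraries stood apart from the other 3 of their group by Dixon's test for 10 of 111 combinations of member and group, where chance alone flags about 1 in 20. Cacna1d was high in Old 9, at 55.9 CPM beside 50.7 to 51.5 in the other libraries of the group. Cacna1e was high in Young 3, at 388 CPM beside 354 to 359.6 in the other libraries of the group. Cacna1g was high in Young 1, at 204 CPM beside 158 to 160.3 in the other libraries of the group. Cacna2d4 was high in Young 1, at 8.52 CPM beside 5.73 to 5.84 in the other libraries of the group. Cacng2 was low in Young 5, at 77.6 CPM beside 85.3 to 86.6 in the other libraries of the group. Cacng3 was low in Old_CP2 15, at 48.4 CPM beside 61.9 to 64 in the other libraries of the group. Cacng3 was low in Young 1, at 47.8 CPM beside 58.8 to 60.5 in the other libraries of the group. Cacng4 was high in Old 10, at 31.6 CPM beside 22.2 to 22.5 in the other libraries of the group. Scn3a was low in Old_CP2 15, at 44.6 CPM beside 54.5 to 55.7 in the other libraries of the group. Scn4b was high in Old_CP2 15, at 122 CPM beside 88.4 to 92 in the other libraries of the group. Young 1 held the highest sum of the thalamus and habenula list, and Old_CP2 15 the highest sum of the midbrain and hindbrain list. Whether these bear on the single values was not tested.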

How the results depend on the processing

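The alternatives covered other size factors, filters, DESeq2, limma voom, fits to 2 groups, leaving out each library, and terms for striatum or thalamus; the thalamus term and the fit without Old 7 and Old_CP2 15 were chosen after seeing the data. Of the values for named members, 735 kept their direction and side of the threshold. With direction kept, 74 lost a call and 10 gained one, and 47 changed sign. Cacng4 with the striatum term, in both comparisons with Young, changed sign and also lost its call, and is counted among the sign changes. In Old minus Young, members called lower numbered 0 with the striatum and 0 with the thalamus term and 6 to 9 with 1 library left out, and members called higher 1 with DESeq2 and 0 to 1 with 1 library left out. In Old_CP2 minus Young, members called lower numbered 0 with either term and 3 to 7 with 1 library left out, and members called higher 0 with either term, 0 when only the 2 groups were fitted and 0 to 1 with 1 library left out. The count of 0 in Old_CP2 minus Old held under all alternatives run. In Old minus Young, log2 fold changes changed sign, of members not called except Cacng4, as follows: 0.077 for Cacng4, 0.0069 for Cacna1a, 0.063 for Cacna1d, 0.024 for Cacna1e and 0.31 for Cacna1h (striatum term), 0.0069 for Cacna1d and 0.039 for Cacna1h (thalamus term), 0.0021 for Cacna1d and 0.036 for Cacna1h (without Old 7 and Old_CP2 15). Leaving out 1 library each gave -0.039 to 0.019 for Cacna1d and -0.10 to 0.072 for Cacna1h. In Old_CP2 minus Old, log2 fold changes of members not called changed sign as follows: 0.0044 for Cacna1a (without Old 7 and Old_CP2 15), -0.0023 for Cacna1d (mean of at least 1 CPM), -0.00083 for Cacna1d (2 groups only), -0.0055 for Cacna1d (striatum term). Leaving out 1 library each gave -0.027 to 0.062 for Cacna1d, -0.12 to 0.019 for Cacna1h and -0.013 to 0.058 for Scn1a. In Old_CP2 minus Young, log2 fold changes changed sign, of members not called except Cacng4, as follows: 0.041 for Cacng4, 0.13 for Scn3a, 0.016 for Scn8a, 0.057 for Cacna1d and 0.23 for Cacna1h (striatum term), 0.070 for Scn3a and 0.011 for Cacna1d (thalamus term), 0.0081 for Scn3a, 0.014 for Scn8a and 0.048 for Cacna1d (without Old 7 and Old_CP2 15), 0.0048 for Cacna1d (no filter on low counts). Leaving out 1 library each gave -0.034 to 0.055 for Cacna1d, -0.14 to 0.027 for Cacna1h, -0.11 to 0.015 for Scn3a and -0.045 to 0.021 for Scn8a. The cause was not tested. No paired analysis was possible because the groups share no replicate numbers. Depth limits Scn10a, Scn11a, Cacna1f, Cacng6 and Cacna1s, the 5 members with the fewest reads, of which Cacna1s had the most, 1079 over the 12 libraries.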
